A study of Mus musculus with 12 samples.

Results

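The immunoglobulin variable (V) segments described here are the 166 segments whose raw counts summed to at least 50 over 12 RNA-seq libraries of mouse ileum and synovium. They were chosen on these measured totals from 348 rows of the count table named Ighv, Igkv or Iglv, in a table of 46603 genes. The other 182 segments stayed below 50 counts. Igkv9-129 with 58 counts and Igkv2-112 with 64 lay just inside the limit, and Ighv1-11 with 48 and Ighv7-4 with 46 lay just outside it. The members were 85 heavy chain segments on chromosome 12, 78 kappa segments on chromosome 6 and 3 lambda segments on chromosome 16, and 1 heavy chain member, Ighv1-2, is annotated as a pseudogene.

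The study compared TNFdARE mice with WT littermates. TNFdARE mice lack the AU-rich element of the Tnf transcript in the germline, so that Tnf mRNA is degraded less and TNF is overproduced, and they are used as a model of combined gut and joint inflammation. Ileum and synovium, the latter taken from the ankle, each gave 3 libraries of biological replicates per genotype, and neither genotype carried another allele or received an agent according to the labels. Not given in the labels are age, sex and strain background, and whether an ileum and a synovium library of equal number came from 1 mouse.

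An antibody chain is made from a V segment that B cells join to a D and a J segment on the heavy chain, or to a J segment on the kappa or lambda chain. Each B cell and its progeny use 1 such joined heavy chain and usually 1 light chain, while many unrelated B cells can use the same V segment, so a V segment count adds up all cells that use it and does not identify a clone. Plasma cells, the antibody-secreting descendants of B cells, carry far more of this mRNA than other B cells, and those of the gut wall mostly make IgA. V segment counts in bulk tissue therefore weigh plasma cells most, and fewer cells and less RNA per cell cannot be told apart in these libraries.

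The segments that the results turn on are shown by the 120 bases at the end of the V exon that is joined to D or J. The stretches were read from GENCODE transcripts of release M21 on GRCm38, on the coding strand and 5′ to 3′. Capitals mark the bases at which the nearest other V segment has another letter. Ighv1-26 (chr12:114788372-114788491, minus strand) was the most abundant heavy chain segment of several libraries, and Ighv1-18 (chr12:114682632-114682751, minus strand) is its nearest neighbour. Ighv7-1 (chr12:113896408-113896527, minus strand) and Igkv15-103 (chr6:68437806-68437925, plus strand) took large shares in synovium. Ighv3-1 (chr12:113964388-113964507, minus strand) was higher in TNFdARE ileum. Igkv6-23 (chr6:70260409-70260528, minus strand) and Igkv6-15 (chr6:70406469-70406588, minus strand) each led the light chains of 1 library.
Ighv1-26: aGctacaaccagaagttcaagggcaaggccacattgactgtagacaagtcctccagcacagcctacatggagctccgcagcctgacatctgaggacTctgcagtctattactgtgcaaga
Ighv1-18: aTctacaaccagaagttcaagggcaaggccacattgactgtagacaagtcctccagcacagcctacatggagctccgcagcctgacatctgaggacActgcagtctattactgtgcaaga
Ighv7-1: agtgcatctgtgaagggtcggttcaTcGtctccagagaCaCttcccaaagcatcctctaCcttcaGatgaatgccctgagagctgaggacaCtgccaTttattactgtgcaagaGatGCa
Igkv15-103: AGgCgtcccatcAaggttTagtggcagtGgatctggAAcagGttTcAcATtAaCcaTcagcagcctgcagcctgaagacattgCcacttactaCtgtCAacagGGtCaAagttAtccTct
Ighv3-1: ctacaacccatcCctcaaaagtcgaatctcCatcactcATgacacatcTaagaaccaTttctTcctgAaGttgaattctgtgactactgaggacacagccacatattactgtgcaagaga
Igkv6-23: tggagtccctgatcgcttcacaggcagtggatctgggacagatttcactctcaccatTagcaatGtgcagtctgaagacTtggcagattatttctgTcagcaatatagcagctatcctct
Igkv6-15: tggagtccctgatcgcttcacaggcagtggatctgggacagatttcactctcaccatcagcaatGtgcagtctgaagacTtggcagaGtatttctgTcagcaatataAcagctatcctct

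In these 120 bases Ighv1-26 and Ighv1-18 differed at 2 positions, and Igkv6-23 and Igkv6-15 differed from their nearest neighbour Igkv6-13 at 4 and 5. Ighv7-1 differed from Ighv7-3 at 11 and Igkv15-103 from Igkv15-101 at 26. Over the whole V exon, 50 of 85 heavy, 40 of 78 kappa and 2 of 3 lambda members were at least 95% identical to another segment. Ighv1-62-2 and Ighv1-71 were 100% identical. Reads were 100 bases long, and 58 heavy, 42 kappa and 1 lambda members shared no run of 100 bases with another segment. How the counting divided reads between like segments is not stated in the labels, so the value of a single segment with a close neighbour is uncertain, as are small counts beside an abundant neighbour. Ighv7-1 and Igkv15-103, at 89% and 78.9% identity to their nearest neighbours over the V exon, have the least similar neighbours of the 7 shown, and all of the 7 except Ighv1-26 shared no run of 100 bases with another segment.

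Library totals ran from 14267834 to 16224402 counts. Summed marker levels followed the labelled tissues: 5 genes of ileal epithelium reached 8609 to 12483 CPM (counts relative to the library total, scaled by TMM over 12 libraries) in ileum and 16.3 to 32.9 in synovium, while 5 synovial fibroblast genes reached 279 to 437 in ileum and 20978 to 47386 in synovium. All 11 markers of bone marrow, neutrophil precursors and red cells were higher in synovium than in ileum in both genotypes, with summed levels of 291 to 1375 CPM against 5.70 to 14.7.

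V segments took a larger share of the RNA in TNFdARE ileum than in WT ileum, and no such difference was seen in synovium. In ileum the 166 segments held 0.708%, 0.293% and 0.507% of all counts in replicates 1, 2 and 3 of TNFdARE mice, while WT ileum held 0.241%, 0.156% and 0.232%. The lowest TNFdARE library was above the highest WT library, and the means were 0.502% ± 0.208 and 0.210% ± 0.0468 (SD, n = 3 each), a ratio of 2.40. In synovium the share was 0.0225%, 0.0319% and 0.0453% in TNFdARE and 0.0452%, 0.0306% and 0.0539% in WT, and the groups overlapped (0.0332% ± 0.0114 and 0.0432% ± 0.0118). Because the share is a sum over segments chosen with results of these data known, it is given as a description with no test. Summed markers of other cell types also separated the genotypes. Ileal epithelium reached 8609 to 10085 CPM in TNFdARE ileum and 11562 to 12483 in WT. In synovium the fibroblast genes reached 20978 to 22281 CPM in TNFdARE against 30660 to 47386, and 6 skeletal muscle genes 978 to 3915 against 6369 to 11005. Their part in the V share, which is a fraction of all RNA, was not tested.

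**Figure D1:**
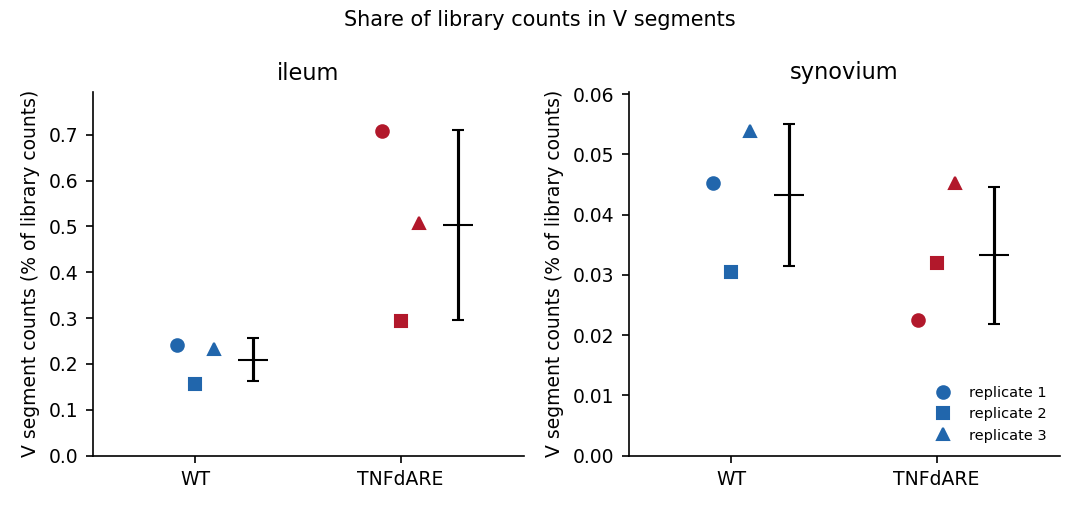
The vertical axes give the counts of the 166 V segments as a percent of all counts of a library, on separate scales from 0 for ileum and synovium. Each symbol is 1 library, with the shape giving the replicate number, and bars give mean and SD of 3 libraries. The TNFdARE ileum libraries lie between 0.293% and 0.708%, all above WT, and the synovium groups overlap.

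The V segments moved in step with the other immunoglobulin genes. They made up 22.1% to 26.7% of all immunoglobulin counts in every one of the 12 libraries. Heavy chains gave 47.2%, 48.1% and 46.1% of the V counts in TNFdARE ileum and 44.7%, 44.1% and 45.5% in WT ileum, which did not overlap, while in synovium the values ran from 45.2% to 47.5% in TNFdARE and from 37.0% to 45.3% in WT. Lambda segments, of which mice have few, supplied 3.51% to 14.2% of the light chain V counts with overlapping groups in both tissues. Igha, the constant region of IgA, supplied 94.1% ± 4.62 of the heavy chain constant region counts in TNFdARE ileum and 98.9% ± 0.146 in WT ileum, and 38.0% ± 5.22 and 27.7% ± 6.96 in synovium (SD, n = 3 each). Ighm, the constant region of IgM, supplied 34.05% ± 8.66 and 39.9% ± 10.9 in synovium and at most 1.02% in any ileum library.

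More of the segments were seen in TNFdARE ileum, but at equal depth the groups overlapped. At least 10 counts were found for 153, 139 and 149 segments in TNFdARE ileum and for 133, 128 and 134 in WT, without overlap. Brought to an equal depth of 3653 V counts, the smallest total of any library, the expected numbers were 142.3, 140.1 and 143.7 in TNFdARE and 136.5, 141.0 and 134.5 in WT, and the groups overlapped. For the heavy chain alone, at 1736 counts, they were 73.8, 71.7 and 73.3 against 68.0, 71.0 and 69.6, and did not overlap. Synovium held more segments at equal depth than ileum: 148.0, 153.0 and 148.6 in TNFdARE and 145.8, 157.9 and 152.6 in WT, all above the highest ileum library. The 2 genotypes overlapped in synovium.

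Use was also more even in most synovium libraries. The effective number of segments (the inverse Simpson index, which is the number of equally used segments that would give the same concentration) was 23.0, 16.9 and 18.6 for heavy chains in TNFdARE ileum and 19.6, 17.5 and 13.3 in WT ileum. In synovium it was 29.4, 21.4 and 24.7 in TNFdARE and 30.3, 19.8 and 27.5 in WT. For light chains it lay between 14.2 and 22.3 in ileum and between 21.3 and 26.8 in synovium, apart from 10.9 in WT synovium replicate 3. The 10 most abundant segments together held 41.7%, 50.03% and 41.4% of the V counts in TNFdARE ileum, 48.0%, 47.5% and 54.6% in WT ileum, 36.2%, 35.7% and 38.3% in TNFdARE synovium and 31.4%, 38.1% and 42.8% in WT synovium. The genotypes overlapped in both tissues by each of these measures.

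**Figure D2:**
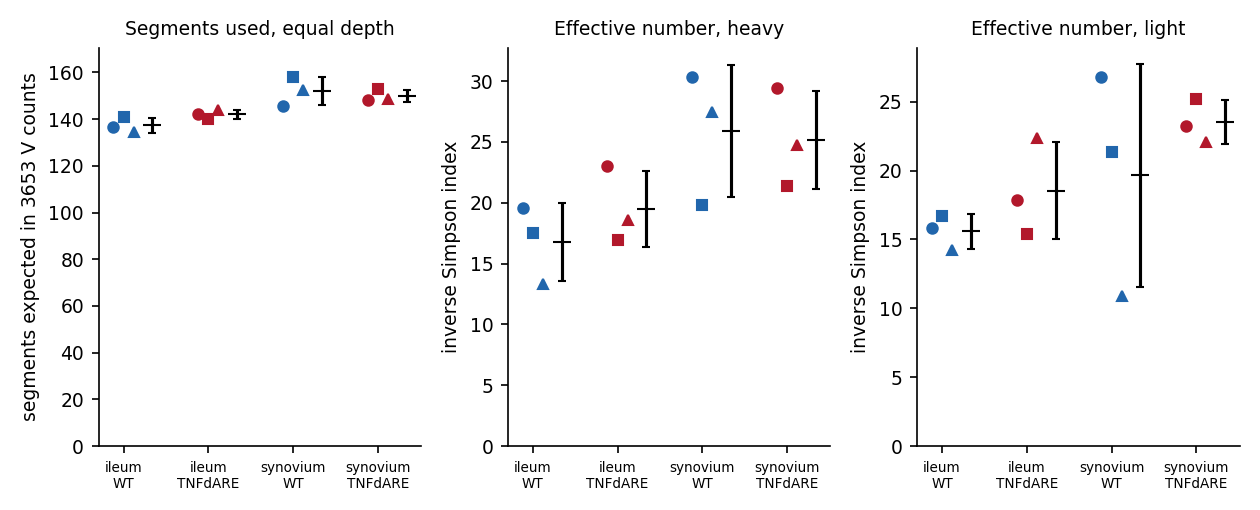
The left panel gives the number of V segments expected in 3653 V counts, and the other panels the inverse Simpson index of heavy and light chain segments. Each symbol is 1 library (circle, square and triangle for replicates 1, 2 and 3; blue WT, red TNFdARE), with mean and SD of 3 libraries beside it. The synovium libraries lie above all ileum libraries at equal depth, and the light chains of WT synovium replicate 3 stand low at 10.9.

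No single heavy chain segment led in all libraries of an ileum group. The most abundant heavy chain segment was Ighv1-26 in TNFdARE replicates 1 and 3, with 10.2% and 14.01% of the heavy chain V counts, and Ighv1-55 in replicate 2 with 11.3%. In WT it was Ighv1-26 in replicates 1 and 2, with 11.5% and 15.1%, and in replicate 3 its near neighbour Ighv1-18 with 15.5%, beside 15.1% for Ighv1-26. Ighv1-26 averaged 9.46% ± 4.96 and 13.9% ± 2.04, Ighv1-81 4.77% ± 1.95 and 9.07% ± 1.92, and Ighv3-6 8.12% ± 3.95 and 5.21% ± 1.89 in TNFdARE and WT (SD, n = 3 each). The Ighv1 family, the largest heavy chain family with 44 of the 85 members, ranged over 57.2% to 60.2% in TNFdARE ileum and over 58.2% to 71.4% with WT ileum. The Ighv3 family of 5 members held 11.8%, 15.0% and 17.0% in TNFdARE against 10.1%, 8.17% and 6.13% in WT, without overlap. Of 14 heavy chain families, 3 (Ighv2, Ighv3 and Ighv4) had all TNFdARE ileum libraries above WT and 1 had them all below: Ighv5, with 5.49%, 3.41% and 5.69% against 6.83%, 9.37% and 9.82%. No heavy chain family separated the genotypes in synovium, and of 18 light chain families 1 did in each tissue, Iglv3 in ileum and Igkv10 in synovium, both higher in TNFdARE. Ighv4 and Iglv3 have 1 member each. Among all genes tested, CPM of the groups did not overlap in 19.3% (TNFdARE higher) and 18.1% (lower) in ileum. In synovium these shares were 23.2% and 21.3%. They rest on CPM of single genes and include genes that were called between genotypes. They therefore do not give the rate of separation without a change, and the family separations were not tested.

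Light chain leaders differed from library to library. They were Igkv6-23 with 14.1%, Igkv8-27 with 13.4% and Iglv1, the main lambda segment, with 12.1% of the light chain V counts in TNFdARE ileum replicates 1, 2 and 3. In WT ileum they were Igkv8-27 with 13.1%, Igkv1-110 with 10.7% and Iglv1 with 13.8%. Igkv6-23 showed the spread within a group: it held 14.1%, 10.9% and 1.01% in TNFdARE and 1.01%, 10.1% and 2.78% in WT. Igkv1-117 was steadier, at 8.29% ± 2.53 and 7.25% ± 2.17 (SD, n = 3 each).

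In synovium, 2 segments that held small shares of the V counts in ileum stood at or near the top. Ighv7-1, known from antibodies to phosphorylcholine, held 8.41%, 9.59% and 4.73% of the heavy chain V counts in TNFdARE synovium and 3.15%, 17.3% and 12.4% in WT synovium, but 0.0904%, 0.158% and 0.270% in TNFdARE ileum and 0.0592%, 0.298% and 0.0799% in WT ileum. It was the leading heavy chain segment in TNFdARE replicate 1 and WT replicates 2 and 3. Igkv15-103 held 10.3%, 10.2% and 9.71% of the light chain V counts in TNFdARE synovium and 5.10%, 15.5% and 10.1% in WT synovium, but between 0.197% and 0.990% in ileum. For both segments the share in every synovium library lay above that in every ileum library, and the genotypes overlapped within synovium. These are shares of the V counts, which were far more numerous in ileum. Summed over the libraries of a group, Igkv15-103 had 831 counts in ileum and 863 in synovium of TNFdARE mice. As parts of all counts, the ratio of ileum to synovium was 1.06 (95% counting interval 0.961 to 1.17) there and 0.332 in WT. For Ighv7-1 it was 0.348 and 0.0632. These ratios pool libraries, and the interval leaves out the spread between them. In TNFdARE ileum, Igkv15-103 held 0.695%, 0.197% and 0.986% of the light chain V counts in replicates 1, 2 and 3.

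Other synovium leaders were each found in 1 library. Ighv1-26 led TNFdARE replicate 2 with 15.4%, Ighv1-39 led TNFdARE replicate 3 with 9.75% and Ighv1-64 led WT replicate 1 with 6.74%. Among light chains, Igkv1-135 led TNFdARE replicate 2 with 10.6%, Igkv10-96 TNFdARE replicate 3 with 10.1% and Igkv5-39 WT replicate 1 with 8.60%. The largest share of any segment was that of Igkv6-15 in WT synovium replicate 3: 1277 counts, or 26.3% of its light chain V counts (95% Wilson interval 25.1% to 27.6%, which covers counting error only). Igkv6-15 held 2.33% and 3.91% in the other WT synovium libraries and 1.88%, 0.529% and 1.53% in TNFdARE synovium. Ighv9-3 averaged 3.94% ± 2.57 in TNFdARE and 4.68% ± 1.92 in WT synovium (SD, n = 3 each).

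**Figure D3:**
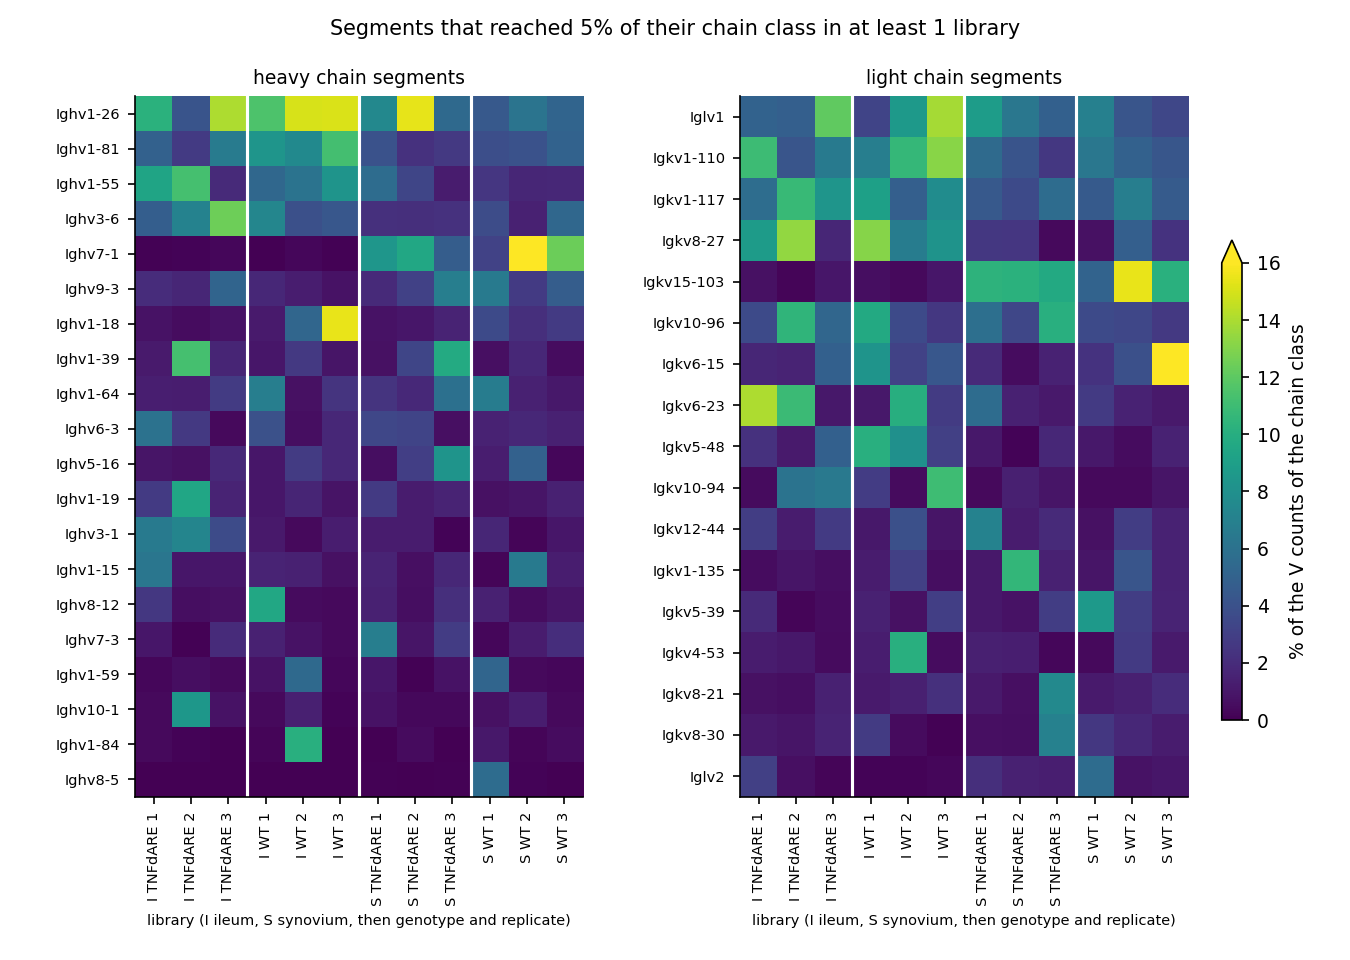
Colour gives the percent of the heavy chain (left) or light chain (right) V counts of a library, up to 16% and above, for segments that reached 5% in at least 1 library. Columns are the 12 libraries, with white lines between groups, and rows are ordered by the mean over libraries. Ighv7-1 and Igkv15-103 are bright in the synovium columns and dark in the ileum columns, and Igkv6-15 exceeds the scale in WT synovium replicate 3 at 26.3%.

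Libraries of a group shared only part of their usage. For each pair of libraries the shared percent of heavy chain V counts (the sum over segments of the smaller of the 2 proportions) ran from 50.7% to 59.9% within TNFdARE ileum, 57.8% to 64.4% within WT ileum, 55.5% to 67.3% within TNFdARE synovium and 51.8% to 63.7% within WT synovium. Between genotypes it ran from 44.3% to 62.4% in ileum and from 53.2% to 67.4% in synovium, ranges that overlap those within groups. Between tissues it ran from 42.7% to 62.7%. For light chains, medians were 58.5% to 62.0% within groups, 61.1% and 61.3% between genotypes and 49.7% to 53.7% between tissues. The pairs share libraries and differ in depth, so no test was made.

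Tested one by one, few segments passed the threshold between genotypes in ileum, although most fitted values were above 0. Of the 166 members, 146 had enough counts to be tested there with edgeR, and 7 were higher in TNFdARE at an adjusted p under 0.05 and 0 lower. That is 4.79% of those tested, beside 4.12% of all genes called higher and 1.57% called lower. The fitted log2 fold change was above 0 in 123 segments and below 0 in 23, with a median of 1.41 beside -0.00 over all genes. The TNFdARE libraries all lay above the WT libraries for 41 of the 146 and all below for 0, beside 19.3% and 18.1% of all genes, and 51 had an unadjusted p under 0.05. With the replicate number as a block 17 segments were higher and 0 lower, the 7 among them.

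The 7 segments came from all 3 chains. Ighv3-1 had 211, 99.7 and 83.2 CPM (scaled by TMM within ileum) in TNFdARE mice and 12.7, 3.09 and 14.4 in WT mice, a log2 fold change of 3.71 ± 0.65 (SE; adjusted p = 0.0421). Igkv1-122 had 20.8, 16.4 and 28.0 against 2.00, 0.140 and 0.135 CPM, the last 2 resting on 2 counts each (4.81 ± 0.84, adjusted p = 0.0420). Igkv8-24 had 34.3, 20.8 and 44.7 against 2.87, 2.53 and 4.27 CPM (3.36 ± 0.35, adjusted p = 0.0389). In these 3 segments each TNFdARE library lay well above each WT library, and the highest TNFdARE library was replicate 1 for Ighv3-1 and replicate 3 for the other two. Their fitted changes stayed above 0 in all 14 alternatives. The calls held in 6 of these for Ighv3-1, 6 for Igkv1-122 and 8 for Igkv8-24, with adjusted p values of up to 0.174 over the alternatives. The remaining 4 were Ighv1-19 (2.98), Igkv9-124 (2.42), Ighv4-1 (2.32) and Iglv3 (2.24), named here because they complete the count.

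Ighv1-26 and Igkv1-110, among the most abundant in ileum, were not called. Ighv1-26 had 326, 57.3 and 317 CPM in TNFdARE ileum and 130, 106 and 166 in WT, with replicate 2 below all WT libraries (log2 fold change 0.80 ± 0.62, adjusted p = 0.424). Igkv1-110 had 392, 62.5 and 173 against 95.6, 95.7 and 174 CPM (0.78 ± 0.65, adjusted p = 0.458). The count of called segments rested on single libraries. It was 2, 35 and 1 without TNFdARE replicate 1, 2 or 3, and 0 without any 1 of the WT replicates. DESeq2 called 45 higher, and limma-voom and limma on log2 FPKM called 0.

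In synovium 1 segment was called lower in TNFdARE and none higher, and that call was lost in most alternative fits. Of 109 members tested, 0 were called higher and 1 lower (0.917%), beside 13.1% and 10.7% of all genes, and 10 had an unadjusted p under 0.05. The fitted log2 fold change was above 0 in 37 and below 0 in 72, with a median of -0.36 beside 0.00 over all genes. The groups did not overlap in 0 segments with TNFdARE higher and in 6 with TNFdARE lower, beside 23.2% and 21.3% of all genes. The segment called was Igkv1-110, with 6.62, 7.11 and 6.19 CPM in TNFdARE and 16.5, 8.32 and 14.1 in WT (-0.97 ± 0.25, adjusted p = 0.0310). All 3 TNFdARE values lay close together below the lowest WT value. Its fitted change was below 0 in all 14 alternatives and passed the threshold in 6 of them, with adjusted p values of 0.00374 to 0.266. It missed in the model of 12 libraries, in limma-voom, in limma on log2 FPKM and on leaving out any library other than WT replicate 2.

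With the replicate number as a block, 8 segments were lower in synovium and 0 higher. DESeq2 called 1 higher and 8 lower, limma-voom called 0, and limma on log2 FPKM called 1, which was higher. Leaving out TNFdARE replicate 1, 2 or 3 gave 3, 3 and 4 calls in either direction, and leaving out WT replicate 1, 2 or 3 gave 2, 5 and 0, with Igkv1-110 among them only without WT replicate 2. Igkv6-15, the segment that dominated 1 WT library, had 2.25, 0.911 and 3.61 CPM in TNFdARE and 6.10, 6.57 and 86.3 in WT. The groups did not overlap, and its log2 fold change of -3.87 ± 1.34 did not pass (adjusted p = 0.0913). Ighv7-1 had 9.12, 13.6 and 9.98 CPM in TNFdARE and 6.74, 24.1 and 23.9 in WT synovium, with overlap (-0.74 ± 0.49, adjusted p = 0.318).

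**Figure D4:**
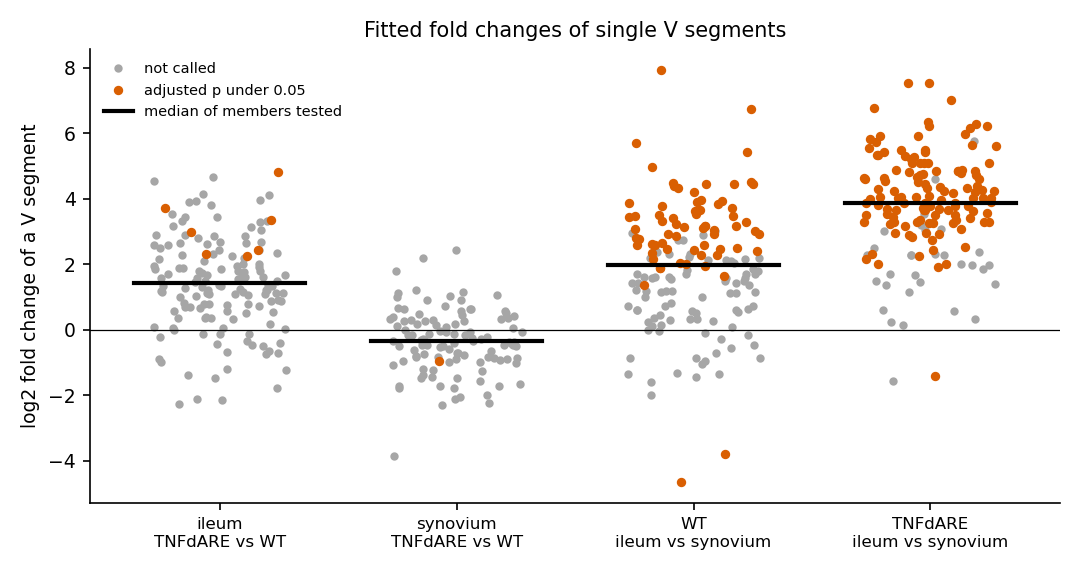
Each point is the fitted log2 fold change of 1 V segment in the comparison named below it, spread sideways at random for visibility, and the black line is the median of the members tested (146, 109, 154 and 154). Orange points have an adjusted p under 0.05 in edgeR. The medians are 1.41 in ileum, -0.36 in synovium, 1.97 between tissues in WT and 3.87 between tissues in TNFdARE mice.

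The TNFdARE effect on a segment was compared between tissues by the interaction over 12 libraries. Of 154 members tested, the effect was lower in synovium than in ileum for 8 (5.19%) and higher for 0, beside 6.80% and 5.28% of all genes. The median difference of effects was -1.77 log2 units, beside -0.08 over all genes, and 41 segments had an unadjusted p under 0.05. Ighv3-1 differed by -4.51 ± 1.151 (adjusted p = 0.0325): its synovium values were 1.31, 1.70 and 0.306 CPM in TNFdARE and 3.62, 0.268 and 1.89 in WT, which overlapped. Igkv6-25 differed by -4.38 ± 1.01 (adjusted p = 0.0227), with 11.7, 4.95 and 23.1 against 2.53, 2.18 and 1.63 CPM in ileum and 0.812, 0.547 and 0.367 against 0.426, 1.61 and 3.65 in synovium. Ighv1-85 differed by -4.18 ± 1.154 (adjusted p = 0.0419), with 68.0, 13.9 and 10.6 against 3.73, 4.28 and 1.36 CPM in ileum and 0.999, 0.729 and 0.306 against 0.993, 1.07 and 1.62 in synovium.

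In these 3 segments the ileum groups stood apart and the synovium groups overlapped at low levels. With the replicate block the TNFdARE effect was lower in synovium for 19 segments and higher for 0, with 6 of the 8 among them. Igkv6-25 then missed the threshold (adjusted p = 0.0512). The count was 24 without TNFdARE ileum replicate 2. It was 3, 3 and 1 without WT ileum replicate 1, 2 or 3, 2, 5 and 1 without TNFdARE synovium replicate 1, 2 or 3, and 0 without WT synovium replicate 3.

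Between tissues of WT mice, V segments were higher in ileum for 66 and lower for 2 of 154 tested, beside 36.0% higher and 38.2% lower among all genes, with a median of 1.97 log2 units beside -0.03. The 3 largest increases by the rule were those of Ighv5-15, Igkv1-133 and Igkv10-94. Ighv5-15 had 95, 91 and 150 counts in ileum and 1 in each synovium library, a ratio of shares of 108 (95% counting interval 36.6 to 526). Igkv1-133 had 55, 51 and 107 counts in ileum and 0, 2 and 2 in synovium, and Igkv10-94 had 589, 60 and 2148 against 16, 10 and 43 (log2 fold change 5.41 ± 1.32, adjusted p = 0.00338). All 3 were higher in every ileum library.

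The 2 segments that were lower in ileum than in synovium were Ighv7-1 and Ighv1-20. Ighv7-1 had 10, 30 and 13 counts in WT ileum and 95, 359 and 354 in WT synovium (log2 fold change -3.80 ± 0.61, adjusted p = 1.98e-04). Ighv1-20, named to complete the count, had 1, 0 and 1 against 10, 7 and 46 counts, and is 98.7% identical to Ighv1-37. Igkv15-103 had 123, 52 and 193 counts in ileum and 188, 388 and 492 in synovium, where WT ileum replicate 3 exceeded WT synovium replicate 1.

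In TNFdARE mice 122 of 154 segments were higher in ileum and 1 lower, beside 35.0% and 31.6% of all genes, with a median of 3.87 beside 0.05. The segment lower in ileum was again Ighv7-1, with 47, 32 and 90 counts in ileum and 146, 224 and 163 in synovium (-1.43 ± 0.54, adjusted p = 0.0364). It missed the threshold in limma-voom, in the fit without a filter on low counts, and on leaving out TNFdARE ileum replicate 1 or 2 or any TNFdARE synovium replicate, with adjusted p values of up to 0.102 over the alternatives. The largest increases were those of Igkv6-13 (7.52 ± 1.42, adjusted p = 7.84e-04), Ighv3-1 (7.002 ± 0.84, adjusted p = 2.98e-05) and Igkv1-133 (6.77 ± 1.69, adjusted p = 0.00466). Igkv6-13 had 1061, 27 and 453 counts in ileum and 1, 0 and 8 in synovium. For Igkv1-133 the counts were 2, 21 and 197 in ileum and 0, 0 and 2 in synovium, so ileum replicate 1 and synovium replicate 3 were alike.

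Genes of the cells that carry V segments were set beside them, from lists chosen with earlier results of these data known. In ileum, edgeR called 0 of 10 tested B cell genes, although all 10 had an unadjusted p under 0.05, and the median log2 fold change was 2.35. Their summed level was 32.9 to 373 CPM in TNFdARE and 23.1 to 28.4 in WT, and the highest value was that of TNFdARE replicate 1, which also had the highest V share. Ms4a1, the B cell surface protein CD20, had 29.2, 0.704 and 6.96 CPM in TNFdARE ileum and 0.555, 0.438 and 0.704 in WT. Of 14 plasma cell genes edgeR called 0 in ileum, 5 had an unadjusted p under 0.05, with a median of 0.47 and summed levels of 1073 to 1323 against 1042 to 1126 CPM. Mzb1, which helps plasma cells fold and secrete antibody, had 52.9, 18.4 and 36.0 against 16.6, 12.1 and 14.3 CPM, without overlap (1.32 ± 0.38, adjusted p = 0.0879). Ms4a1 and Mzb1 were picked from lists with 0 genes called in ileum, and the summed plasma cell levels of the genotypes overlapped. Markers of Peyer's patch and follicle summed to 43.7 to 182 CPM in TNFdARE ileum against 13.6 to 17.8 for WT. Of 7 tested, 2 rose and 0 fell, beside 4.12% and 1.57% of all genes: the chemokines Cxcl13 (3.03 ± 0.50) and Ccl20 (2.98 ± 0.42). Their part in the V share was not tested.

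Of 5 tested factors that support plasma cells or IgA, 3 rose in ileum and 0 fell, beside 4.12% and 1.57% of all genes: Tnfsf13b, the B cell survival factor BAFF (1.10 ± 0.18), Tnfsf11, the RANK ligand (3.61 ± 0.64), and Tgfb1, a cytokine that directs switching to IgA (1.70 ± 0.32). Tnfsf13b rose in synovium too (1.37 ± 0.27, adjusted p = 0.0125). The part of these factors in the V share was not tested in either tissue. Of the germinal centre and class switching list, 1 of 7 rose in ileum, and in synovium 2 of 6 rose and 1 fell. Among all genes 4.12% were called higher in ileum, and 13.1% higher and 10.7% lower in synovium, so that with 6 or 7 genes tested these counts are small in either case. The synovial genes were Cxcl13, which draws B cells (6.36 ± 0.42, adjusted p = 4.60e-04), S1pr2, a receptor of germinal centre B cells (0.83 ± 0.12), and Cxcr5, the receptor for Cxcl13 (-2.13 ± 0.52).

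In synovium 13 B cell genes were tested, with 0 higher and 1 lower, beside 13.1% and 10.7% of all genes, and a median of -1.04. An unadjusted p under 0.05 was found for 7 of the 13. The gene that fell was Cr2, a complement receptor of mature B cells (-1.37 ± 0.36, adjusted p = 0.0335). Of the plasma cell list 2 of 13 passed the test, both higher, Slamf7 (1.46 ± 0.24) and Tnfrsf13b (0.67 ± 0.16), a share near the 13.1% of all genes called higher there. By the interaction the TNFdARE effect was lower in synovium than in ileum for 7 of 13 B cell genes, beside 6.80% of all genes. The levels themselves were higher in synovium in WT mice, where all 13 were called lower in ileum, beside 38.2% of all genes. In TNFdARE mice 1 of the 13 was called higher in ileum and 1 lower, beside 35.0% and 31.6% of all genes.

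RNA of early B lineage cells was found in the synovium libraries beside the V segments. Of 10 genes of V(D)J recombination and the early B lineage, all 10 were higher in WT synovium than in WT ileum, as were 9 of 10 in TNFdARE mice, beside 38.2% and 31.6% of all genes. Rag1, which cuts DNA at V, D and J segments, had 211, 329 and 362 counts in TNFdARE synovium and 118, 521 and 506 in WT synovium, against 2, 0 and 1 and 0, 0 and 0 in ileum. Igll1, part of the surrogate light chain of B cell precursors, had 44 to 158 counts in synovium and 0 in all 6 ileum libraries. WT synovium replicate 1 was the lowest of the 6 synovium libraries in Rag1 and Igll1 counts and in the Ighv7-1 and Igkv15-103 shares, a pattern picked out after these values were seen. Summed over the 10 genes, TNFdARE replicate 1 was lower, at 140 CPM against 147 in WT replicate 1. Summed over the 11 bone marrow markers, TNFdARE replicate 1 and WT replicate 3 were lower, at 291 and 340 CPM against 419. In synovium 1 of the 10 was called lower in TNFdARE and 0 higher, beside 10.7% and 13.1% of all genes. It was Ebf1, a transcription factor of the B lineage (-0.37 ± 0.09, adjusted p = 0.0215), which is not among the 6 genes summed next. Summed over 6 early B lineage genes, the levels were 26.1 to 60.1 CPM in TNFdARE and 19.7 to 71.6 in WT synovium, and edgeR called 0 of the 6 and 0 of the 11 bone marrow markers between genotypes there, with 0 at an unadjusted p under 0.05. The part of these cells in the synovial V usage was not tested.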

How the data were processed

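Poly-A RNA of 12 mouse tissue samples was sequenced as single reads of 100 cycles in a stranded library, per the labels' protocols. The tools listed, without their roles, in the submitters' processing notes include Bowtie2 2.3.3.1 and cutadapt 1.15, and the build is GRCm38. Not given in the sources used here: how reads were counted, how those matching several segments were treated, and from which annotation. For 46603 genes the authors deposited counts, and for 17046 of them FPKM; the FPKM, put on a log2 scale after adding 0.1, were fitted with limma only as an alternative. Gene identifiers were looked up in GENCODE M21 for symbols and coordinates (98.9% matched).

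The members, gene lists and tests were chosen with earlier results of these data known. Shares, numbers of segments used (analytic rarefaction) and inverse Simpson indices were computed per library and described by mean and SD without a test. Single segments were tested over all genes with edgeR 4.0.16 in R 4.3.3 (filterByExpr, TMM, robust quasi-likelihood F test, two-sided, Benjamini-Hochberg over all genes tested, threshold 0.05), within each tissue or, for the interaction and tissue comparisons, over the 4 groups. Adjusted p values are from edgeR unless another tool is named; SE is the log2 fold change over the root of F. The script was tested on simulated data. Alternatives were RLE and plain library totals, no filter, DESeq2 1.42.0, limma-voom (limma 3.58.1), the replicate block, other member limits and leaving out each library. Promoter and joining signal motifs were not searched, since no sequence around the segments was used here.

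Named segments were the most abundant heavy and light chain segment of each library, the leading 3 heavy, 2 kappa and 1 lambda segments per group, and up to 3 called increases and decreases per comparison at a mean log2 CPM of 1 or more; not every one is described. From the gene lists at most 4 called genes were to be taken, or the most abundant gene where none was called. Ms4a1 and Mzb1 were described in ileum although edgeR did not call them between genotypes there. Mzb1 was also not the most abundant gene of its list in ileum.

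Replicate numbers are shared between genotypes. Libraries of equal number deviated together within each tissue (correlation of deviations 0.240, 0.237 and 0.169 for replicates 1, 2 and 3 in ileum, and 0.616, 0.361 and 0.227 in synovium, over 10394 and 10760 genes outside immunoglobulin loci). The main fits held the groups only and did not use this pairing. The replicate block was fitted as an alternative, and its result is given where it differs. The labels call the replicates biological; depth was 14267834 to 16224402 counts per library, and intervals cover counting error only, since reads carried no molecular identifiers.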

Additional observations from a re-analysis of the deposited data

Results flagged for a closer look

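The TNFdARE effect on 8 V segments differed between synovium and ileum by the interaction test in edgeR (adjusted p under 0.05), in each case lower in synovium. Igkv5-45 had the largest fitted difference, -8.40 log2 units; its counts were 33, 11 and 23 against 7, 0 and 0 in ileum and 0, 0 and 0 against 2, 4 and 8 in synovium (TNFdARE against WT), so the fitted value rests on few counts and is no bound. Ighv3-1 differed by -4.51, Igkv6-25 by -4.38, Ighv1-85 by -4.18, Igkv4-58 by -3.98, Iglv3 by -2.65, Ighv1-19 by -2.49 and Igkv8-24 by -2.32. Igkv4-58 also rests on few reads in synovium, with 1, 2 and 2 against 2, 6 and 7 counts. Igkv8-24 and Ighv1-19 had fitted effects above 0 in both tissues: 3.36 and 2.98 in ileum, and 1.07 and 0.51 in synovium, where neither passed the threshold (adjusted p = 0.169 and 0.383).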

How the results depend on the processing

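The number of V segments called between genotypes depended on the settings; the cause was not tested. In ileum it was 7, and became 17 with the replicate block, 45 with DESeq2, 26 in the model of 12 libraries, 13 with plain library totals, 0 with limma-voom and 0 with limma on FPKM, and ran from 0 to 35 on leaving out 1 library; every call was higher in TNFdARE. In synovium it was 1, and became 8 with the replicate block, 9 with DESeq2, 2 in the model of 12 libraries, 5 without a filter on low counts, 0 with limma-voom and 0 when a 2-fold change was also required, and ran from 0 to 5 on leaving out 1 library. The interaction called 8, and 19 with the replicate block, 31 with DESeq2, 2 with limma-voom, 4 without a filter, and 0 to 24 without 1 library. Between WT tissues 68 segments were called, 28 with limma-voom and 51 to 64 without 1 library; between TNFdARE tissues the 123 calls stayed within 106 to 121 without 1 library. The replicate block changed no other count by over 1.5 times.

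The ileum difference in V share (TNFdARE minus WT, 0.293 percentage points) ran from 0.190 to 0.398 without 1 library, and that in synovium (-0.00997) from -0.0163 to -0.00460. The ileum difference in segments used at equal depth (4.76) ran from 3.33 to 6.59 and was 15.3 by segments with at least 10 counts; that in synovium (-2.25) ran from -5.42 to 0.662. The ileum difference in the leading heavy chain share (-2.20 percentage points) ran from -3.44 to -1.38, and was 0.643 for light chains and -6.97 for families; in synovium (-0.949) it ran from -3.65 to 1.62 and was -6.48 for light chains. Of 205 alternative values of single named segments, 141 kept their direction and call, 64 kept the direction but missed the threshold, and 0 reversed. Depth limits synovium most, where the V counts per library were 3653 to 7701.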

Other observations

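Position along a locus did not separate the genotypes in either tissue. Members above the midpoint of the heavy chain locus, 35 of 85, held 38.0%, 40.1% and 38.3% of the heavy chain V counts in TNFdARE ileum, 47.0%, 44.1% and 35.2% in WT ileum, 34.9%, 29.6% and 39.8% in TNFdARE synovium and 45.5%, 30.6% and 34.4% in WT synovium. In the kappa locus, 46 of 78 members above the midpoint held 38.9% to 65.4% over the 12 libraries. The tissues of TNFdARE mice did not overlap in this kappa share. It was 62.1%, 54.8% and 54.6% in TNFdARE ileum and 50.3%, 38.9% and 53.0% in TNFdARE synovium. The tissues of WT mice overlapped, with 47.9% to 65.4% in ileum and 46.6% to 62.2% in synovium.

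Antibody classes other than IgA were unevenly spread over the ileum libraries. Ighg2b, an IgG constant region, supplied 0.675% to 6.45% of heavy chain constant region counts in TNFdARE ileum and 0.264% to 0.384% in WT ileum, and Ighg1 0.212% to 2.25% against 0.0562% to 0.106%. In synovium Ighg2b supplied 13.4% to 30.1% in TNFdARE and 13.6% to 26.6% in WT, which overlapped, and Ighg1 2.95% to 3.82% against 0.580% to 1.62%, which did not.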
